A study of Mus musculus with 24 samples.

Results

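A set of 10 genes was followed across 24 RNA-seq libraries of mouse lung: Fkbp5, Tsc22d3, Zbtb16, Sgk1, Klf9, Dusp1 and Errfi1, which glucocorticoids induce, the metallothionein genes Mt1 and Mt2, and Nr3c1, which encodes the glucocorticoid receptor. They were taken by name from the deposited table of expected counts, which held 54532 genes, and all 10 passed the filter on low counts that left 16935 genes to test. The libraries came from whole lungs of young male mice of the C57BL6/j strain, whose exact age is not stated. After 2 days there were 4 groups with 6 libraries each: hypoxia with ABT-263 at 50 mg/kg/day, hypoxia with vehicle, normoxia with ABT-263 at the same dose, and normoxia with vehicle, which was the control. ABT-263 (navitoclax) binds BCL-2, BCL-XL and BCL-W and is used as a senolytic, a drug meant to clear senescent cells. No group carried a genetic change, and the oxygen level, the vehicle and the hour at which lungs were taken are not stated in the labels.

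Glucocorticoids such as corticosterone, the main one in mice, rise with stress and with the daily cycle. They bind the receptor made from Nr3c1, which leaves its chaperones, enters the nucleus and switches on genes such as Fkbp5, whose product in turn lowers the receptor's affinity for hormone. Metallothioneins are small cysteine-rich proteins that bind zinc and copper. Their genes respond to zinc through the factor MTF1 and its metal response elements, and also to glucocorticoids, oxidants and low oxygen, while in lung glucocorticoids mature the surfactant system and restrain inflammation.

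The sequence around a RefSeq transcript start is shown for 4 of the genes: both metallothioneins because they moved together and lie side by side on chromosome 8, Fkbp5 because it moved with them, and Sgk1 because its window held a full palindromic receptor site although its level did not pass the test. The windows are RefSeq promoters of GRCm38.p6, each running from 250 bases before a start to 50 after it, printed 5′ to 3′ on the gene's own strand. The Mt1 and Mt2 windows sit at the start of the annotated gene, while those printed for Fkbp5 and Sgk1 sit at transcript starts inside it, downstream of the outermost start in GENCODE. Of the 10 genes, 8 matched this table, with 16 windows in all, and Zbtb16 and Nr3c1 are named only. Capitals mark a metal response core (TGCACNC or TGCGCNC, on either strand) in Mt2 (chr8:94172368-94172667, plus strand) and Mt1 (chr8:94178839-94179138, plus strand). In the fifth of the Sgk1 windows (chr10:21993640-21993939, plus strand) they mark the palindrome made of AGAACA and TGTTCT with 3 bases between, and in Fkbp5 (chr17:28486100-28486399, minus strand) the E-box CACGTG, which is bound by clock and other bHLH factors.
Mt2: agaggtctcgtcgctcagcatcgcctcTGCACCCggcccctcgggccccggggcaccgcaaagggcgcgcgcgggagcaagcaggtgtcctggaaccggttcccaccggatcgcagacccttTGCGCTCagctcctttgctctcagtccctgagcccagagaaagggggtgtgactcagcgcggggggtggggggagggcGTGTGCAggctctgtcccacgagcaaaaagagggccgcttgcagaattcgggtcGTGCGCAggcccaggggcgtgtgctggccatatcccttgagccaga
Mt1: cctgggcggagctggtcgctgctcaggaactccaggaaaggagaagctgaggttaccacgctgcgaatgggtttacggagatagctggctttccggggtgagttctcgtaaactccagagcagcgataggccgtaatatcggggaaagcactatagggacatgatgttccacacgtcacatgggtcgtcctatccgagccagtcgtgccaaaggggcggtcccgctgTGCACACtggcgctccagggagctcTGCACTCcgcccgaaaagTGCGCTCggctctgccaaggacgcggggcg
Sgk1: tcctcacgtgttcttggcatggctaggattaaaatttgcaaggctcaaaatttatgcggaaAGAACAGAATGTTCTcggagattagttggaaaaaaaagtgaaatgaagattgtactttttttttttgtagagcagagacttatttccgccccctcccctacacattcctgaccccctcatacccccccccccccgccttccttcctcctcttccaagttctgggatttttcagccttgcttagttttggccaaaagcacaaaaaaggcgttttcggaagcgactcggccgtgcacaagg
Fkbp5: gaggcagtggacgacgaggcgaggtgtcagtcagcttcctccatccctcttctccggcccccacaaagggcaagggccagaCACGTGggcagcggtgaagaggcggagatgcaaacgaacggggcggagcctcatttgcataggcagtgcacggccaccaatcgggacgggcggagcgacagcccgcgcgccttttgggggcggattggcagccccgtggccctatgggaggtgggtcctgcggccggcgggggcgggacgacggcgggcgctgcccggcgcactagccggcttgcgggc

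The Mt2 window held 4 metal response cores and the Mt1 window 3. Among all 32851 mouse windows of 300 bases in the table, 25.7% held such a core on either strand and 1.97% held 3 or more. The receptor palindrome was found on either strand in 3 of the 32851 windows, and the Sgk1 window was among them. It was in 1 of the 16 windows of these genes, and its absence from the rest says only that these letters are not in those bases. CACGTG stood in 7.15% of all windows and, among these genes, in a window each of Fkbp5, Sgk1 and Dusp1. The hypoxia-inducible factor core ACGTG was counted in 19.6% of all windows, and each CACGTG contains it on both strands. These are matches of letters, and no binding was measured.

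Levels are counts per 1e+06 (CPM) scaled by the trimmed mean of M values. Libraries summed to 12643500 to 17295200 expected counts, so the lowest single values among these genes were 37 counts for Zbtb16 and 99 for Fkbp5, where counting error alone is 16.4% and 10.1%. Within groups, every pair of libraries differed by more than sampling noise (lowest chi-square per degree of freedom 6.59), and log2 CPM correlated at 0.966 to 0.989. Animals are not numbered in the labels, so the p-values rest on library-to-library spread alone, some of which may be technical. Lung identity was clear, with the surfactant gene Sftpc at 18500 to 33300 CPM and the club cell secretoglobin Scgb1a1 at 46200 to 126000 CPM. Haemoglobin genes took 1.74% ± 0.589 of counts in hypoxia with ABT-263, 1.47% ± 0.360 in hypoxia with vehicle, 0.6% ± 0.214 in normoxia with ABT-263 and 0.385% ± 0.080 in normoxia with vehicle (SD, n = 6 each).

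Per kilobase of annotated exon (GENCODE vM21), the order of levels in normoxia with vehicle placed Dusp1 (52.3 CPM per kb), Tsc22d3 (42.8), Errfi1 (33.5) and Mt1 (30.5) at the top. Sgk1 (24.7), Mt2 (19.7) and Nr3c1 (13.5) were in the middle, and Klf9 (6.98), Zbtb16 (1.28) and Fkbp5 (0.887) were lowest. In hypoxia with vehicle Mt2 stood second at 51.0 ± 16.6 CPM per kb, after Tsc22d3 at 53.9 ± 21.3 (SD, n = 6), a gap within the spread. Fkbp5 remained the lowest of the genes per kilobase in each of the 4 groups. An annotated gene overlaps 3 of them on the same strand (Fkbp5, Klf9, Dusp1) and 4 on the other strand (Fkbp5, Dusp1, Errfi1, Mt2). No source used here gives the strand setting of the counting, so reads from those partners may be included.

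**Figure D1:**
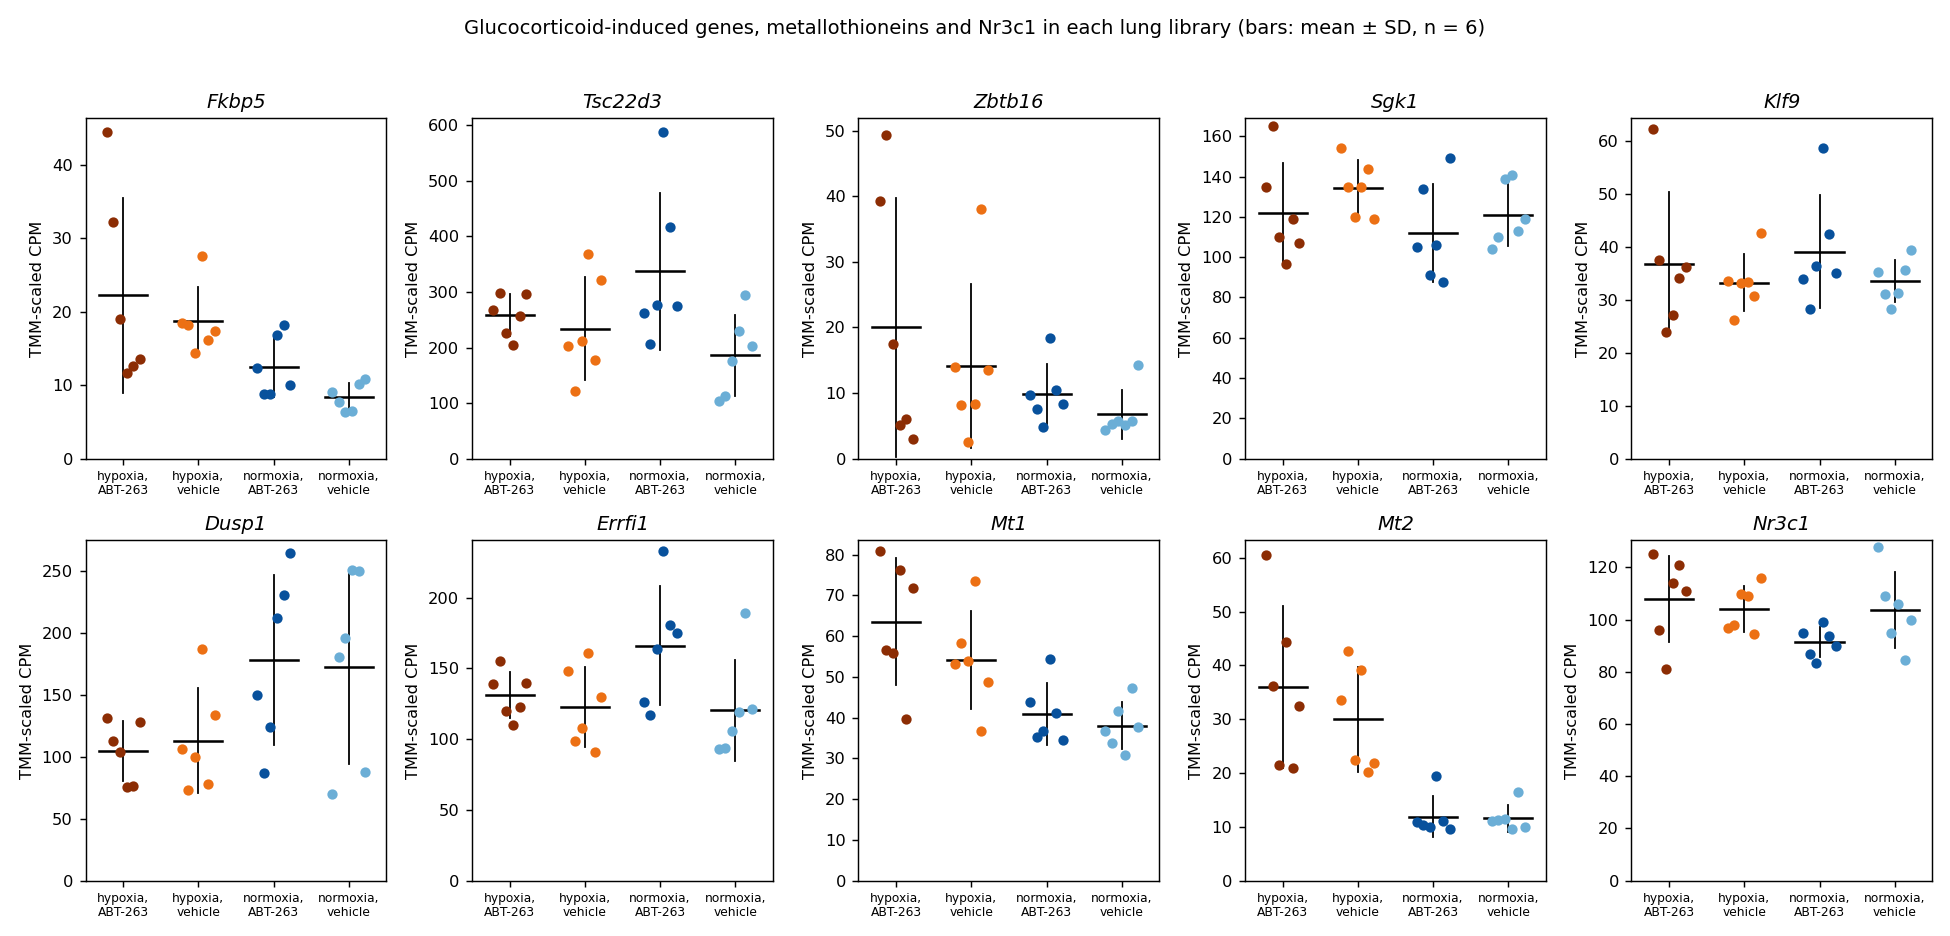
TMM-scaled CPM (y axis, from 0, a separate scale for each gene) of the 10 genes in every library, by group (x axis). Points are libraries and bars are mean ± SD, n = 6. Every Mt2 value in hypoxia, 20.2 CPM or more, lies above every value in normoxia, 19.5 CPM or less, and Zbtb16 is spread from 2.46 to 49.4 CPM within the hypoxia groups.

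The first comparison asked what 2 days of hypoxia did to these genes in vehicle-treated lungs. Fkbp5, Mt1 and Mt2 rose, and 0 of the 10 fell (also by DESeq2 and limma-voom, and 0 at an unadjusted p under 0.05). The classical target genes Tsc22d3, Sgk1, Klf9 and Errfi1 had estimates within 0.33 on the log2 scale and did not pass the test. Zbtb16 (1.07) and Dusp1 (-0.61) had larger estimates and did not pass either. The count of 3 of 10 stands beside 18.9% of all genes tested that rose and 16.8% that fell at an adjusted p under 0.05 (edgeR quasi-likelihood F test, Benjamini-Hochberg over all genes). The median log2 fold change of the 10 genes was 0.24, beside -0.04 over all genes. In whole-lung RNA, a change in the number of cells of a type and a change in RNA per cell cannot be told apart, here and in all that follows.

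Nr3c1, the receptor itself, had 94.6, 104 and 116 CPM (lowest, median and highest) in hypoxia with vehicle, against 84.7, 103 and 128 CPM in normoxia with vehicle. The hypoxia range lay inside the normoxia range, and the fold change was 1.0 (log2 95% interval -0.20 to 0.20, adjusted p = 0.979, edgeR). Fkbp5 (chr17:28399094-28517527, minus strand, GRCm38) encodes FKBP51, the HSP90 co-chaperone of that receptor, and is among its most sensitive targets. Its lowest, median and highest values were 14.4, 17.8 and 27.6 CPM in hypoxia with vehicle, against 6.39, 8.36 and 10.8 CPM in normoxia with vehicle. The groups did not overlap, and the rise was 2.22-fold (log2 fold change 1.15, SE 0.29, edgeR adjusted p = 0.00302).

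The transcription regulators among the targets did not pass. Zbtb16 (chr9:48654297-48836222, minus strand) encodes PLZF, a repressor that marks innate-like lymphocytes and is strongly induced by steroids in several tissues. It had 2.46, 11.0 and 38.1 CPM in hypoxia with vehicle, against 4.31, 5.51 and 14.2 CPM in normoxia with vehicle. Of the hypoxia libraries, 1 lay above the whole normoxia range and 1 below it, and the log2 fold change of 1.07 had an SE of 0.62 (edgeR adjusted p = 0.187). Klf9, a Krüppel-like repressor with a daily rhythm, averaged 33.3 ± 5.37 CPM in hypoxia with vehicle and 33.6 ± 4.01 CPM in normoxia with vehicle (SD, n = 6). Tsc22d3, which encodes GILZ, an anti-inflammatory leucine zipper protein, averaged 234 ± 92.6 CPM in hypoxia with vehicle and 186 ± 72.9 CPM in normoxia with vehicle, a log2 fold change of 0.33 with a 95% interval of -0.24 to 0.89.

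The targets that act on signalling did not pass either. Dusp1 (chr17:26505590-26562128, minus strand), the phosphatase MKP-1 that switches off p38 and JNK, had 73.3, 103 and 187 CPM in hypoxia with vehicle, against 69.8, 188 and 251 CPM in normoxia with vehicle. The 2 ranges overlapped, and the log2 fold change was -0.61 (95% interval -1.25 to 0.02, edgeR adjusted p = 0.126). Sgk1, a kinase that promotes epithelial sodium uptake, averaged 135 ± 13.6 CPM in hypoxia with vehicle and 121 ± 15.6 CPM in normoxia with vehicle (SD, n = 6). Errfi1, whose product MIG6 inhibits the EGF receptor, averaged 123 ± 28.2 CPM in hypoxia with vehicle and 120 ± 35.7 CPM in normoxia with vehicle. Neither difference passed the test (log2 95% intervals of the fold change -0.11 to 0.42 for Sgk1 and -0.33 to 0.39 for Errfi1).

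Both metallothioneins rose. Mt2 (chr8:94172664-94173568, plus strand) had 20.2, 28.0 and 42.6 CPM in hypoxia with vehicle, against 9.5, 11.1 and 16.5 CPM in normoxia with vehicle. All 6 hypoxia libraries lay above all 6 normoxia libraries, a 2.59-fold rise (log2 fold change 1.37, SE 0.25, edgeR adjusted p = 0.000137). Mt1 (chr8:94179082-94180327, plus strand) had 36.8, 53.6 and 73.6 CPM in hypoxia with vehicle, against 30.8, 37.3 and 47.3 CPM in normoxia with vehicle. In hypoxia 5 of 6 libraries exceeded the normoxia range, a 1.42-fold rise (log2 fold change 0.51, SE 0.16, edgeR adjusted p = 0.0149). Groups failed to overlap with hypoxia higher for 2 of the 10 genes, Fkbp5 and Mt2, beside 10.9% of all genes tested, and with hypoxia lower for 0 of them, beside 6.93%. Without hypoxia vehicle replicate 4, the library highest in Mt1, its log2 fold change was 0.403 and the adjusted p was 0.054.

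The same question in ABT-263-treated lungs compares the other libraries, none of them shared with the comparison under vehicle. Its p-values are still not independent of that comparison, because the filter, the scaling and the estimate of spread come from all 24 libraries. Mt1 and Mt2 rose again, Fkbp5 and Nr3c1 rose and Dusp1 fell, beside 21.6% of all genes that rose and 19.4% that fell (edgeR, adjusted p under 0.05). The median log2 fold change was 0.18 for the 10 genes and -0.02 over all genes. Mt2 had 21, 34.2 and 60.6 CPM in hypoxia with ABT-263, against 9.60, 10.6 and 19.5 CPM in normoxia with ABT-263. It was again the gene without overlap, 1 of 10 beside 9.16% of all genes wholly higher and 5.48% wholly lower in hypoxia, and it rose 3.05-fold (log2 fold change 1.61, SE 0.25, edgeR adjusted p = 2.37e-05). Mt1 averaged 63.6 ± 15.6 CPM in hypoxia with ABT-263 and 40.9 ± 7.54 CPM in normoxia with ABT-263 (SD, n = 6), 1.55-fold higher (edgeR adjusted p = 0.00286), with 5 of 6 hypoxia libraries above the normoxia range.

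Fkbp5 was less even under the drug. It had 11.6, 16.2 and 44.4 CPM in hypoxia with ABT-263, against 8.75, 11.1 and 18.2 CPM in normoxia with ABT-263. In hypoxia 3 of 6 libraries lay above the normoxia range, for a log2 fold change of 0.84 (SE 0.28, edgeR adjusted p = 0.0205). The hypoxia ABT-263 replicates 1 and 2, at 44.4 and 32.2 CPM, carried much of this. The log2 fold change was 0.517 without replicate 1 (adjusted p = 0.103) and 0.183 without both (adjusted p = 0.529), where a lower value follows from leaving out the highest libraries. The call was lost under 8 of 34 alternative settings, with adjusted p between 0.0085 and 0.529. Beside those just given they were leaving out hypoxia ABT-263 replicate 2, normoxia ABT-263 replicate 2 or 3, or the least correlated library of each group, using no filter on low counts (adjusted p = 0.0611), and fitting the groups compared alone (adjusted p = 0.0586).

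Nr3c1 averaged 108 ± 16.4 CPM in hypoxia with ABT-263 and 91.3 ± 5.67 CPM in normoxia with ABT-263 (SD, n = 6), which is 0.24 higher on the log2 scale (SE 0.10, edgeR adjusted p = 0.049). Dusp1 had 75.3, 108 and 131 CPM in hypoxia with ABT-263, against 86.9, 181 and 265 CPM in normoxia with ABT-263, a log2 fold change of -0.77 (SE 0.31, edgeR adjusted p = 0.0498). Both stood at the edge of the threshold: Nr3c1 lost its call under 24 of 34 alternative settings and Dusp1 under 20 of 34, with adjusted p between 0.00784 and 0.151 for Nr3c1 and between 0.0225 and 0.13 for Dusp1. Averaged over vehicle and ABT-263, Dusp1 fell by 0.69 on the log2 scale (SE 0.22, edgeR adjusted p = 0.0101), and this call held under all 33 alternatives tried.

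In that average, which pools the libraries of both drug arms, Fkbp5 (log2 fold change 1.0, adjusted p = 0.000215), Mt1 (0.57, adjusted p = 0.000152) and Mt2 (1.49, adjusted p = 1.87e-07) rose by edgeR, beside 26.9% of all genes that rose and 28.6% that fell. Zbtb16 passed there too (1.06, adjusted p = 0.0435), but it rests on few libraries. It had 2.96, 11.8 and 49.4 CPM in hypoxia with ABT-263, against 4.81, 8.98 and 18.4 CPM in normoxia with ABT-263. The high values were 39.2 and 49.4 CPM in hypoxia ABT-263 replicates 1 and 2 and 38.1 CPM in hypoxia vehicle replicate 5. Without hypoxia ABT-263 replicates 1 and 2 the averaged log2 fold change was 0.377, without hypoxia vehicle replicate 5 it was 0.752, and the call was lost under 20 of 33 alternatives.

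**Figure D2:**
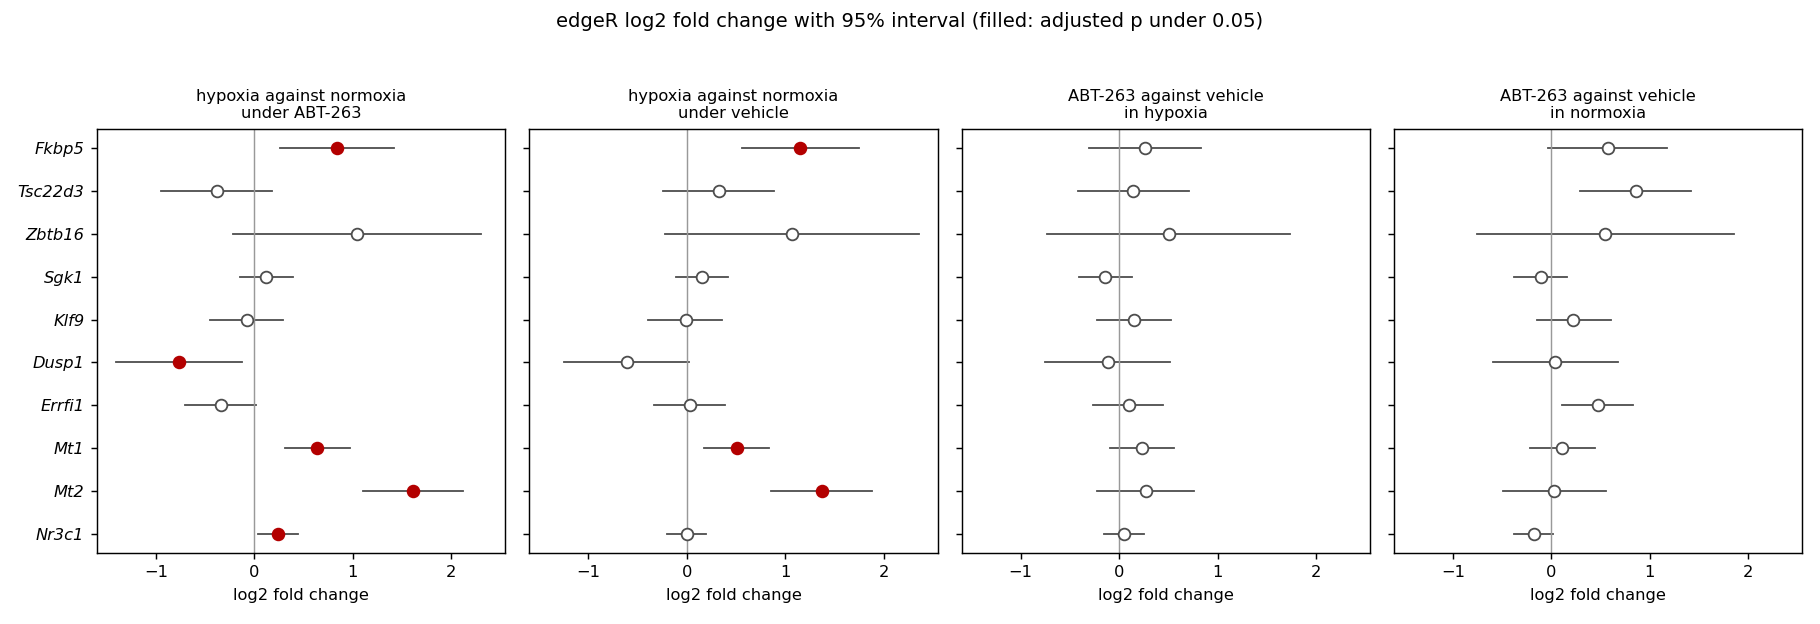
Log2 fold change (x axis) of the 10 genes (y axis) in 4 comparisons, left to right: hypoxia against normoxia under ABT-263 and under vehicle, then ABT-263 against vehicle in hypoxia and in normoxia. Points are edgeR estimates, lines 95% intervals, and filled points have an adjusted p under 0.05. Filled points lie in the oxygen comparisons alone, with Mt2 the farthest right at 1.61 and 1.37.

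Lists of cell type markers also held calls in the comparisons of hypoxia with normoxia. These stand beside 18.9% of all genes that rose and 16.8% that fell under vehicle, and 21.6% and 19.4% under ABT-263. All 7 erythroid markers rose under vehicle and under ABT-263, and their summed level ran from 9680 to 18600 CPM in hypoxia with vehicle and from 2670 to 5000 CPM in normoxia with vehicle. Of 5 smooth muscle markers 3 rose in either arm, with sums of 1680 to 2350 CPM in hypoxia with vehicle and 699 to 881 CPM in normoxia with vehicle. Of 6 alveolar macrophage markers 2 rose in either arm, with sums of 456 to 844 CPM in hypoxia with vehicle and 231 to 326 CPM in normoxia with vehicle. Their median log2 fold change was 0.24 under vehicle and 0.21 under ABT-263, and 2 of the 6 were negative in either arm. The sum leans on Chil3, which alone ran from 119 to 705 CPM over all libraries. T cell markers fell in 7 of 7 cases under ABT-263 (sums of 18.9 to 49.5 CPM in hypoxia and 50.0 to 136 CPM in normoxia) and in 6 of 7 under vehicle (36.8 to 53.6 CPM in hypoxia and 59.0 to 86.2 CPM in normoxia). Innate lymphoid and NKT markers, the cells in which Zbtb16 is best known, fell in 4 of 6 cases under ABT-263, where 1 rose, and in 3 of 6 under vehicle, with sums of 45.6 to 56.7 CPM in hypoxia and 55.2 to 66.8 CPM in normoxia. Of 5 adipocyte markers tested, 4 fell under vehicle (median log2 fold change -2.48), with sums of 19.1 to 78.1 CPM in hypoxia and 23 to 348 CPM in normoxia. Under ABT-263 their median was -0.27, with sums of 29.5 to 212 CPM in hypoxia and 37.6 to 282 CPM in normoxia. Of 6 platelet markers 1 rose and 1 fell under ABT-263 and 3 rose under vehicle. Of 6 fibroblast markers 3 rose under ABT-263, while 2 rose and 1 fell under vehicle. Under vehicle, 2 of 6 endothelial, 2 of 8 alveolar type 2, 1 of 4 club cell and 1 of 5 monocyte markers fell. Of 6 alveolar type 1 markers 2 rose, and of 6 neutrophil markers 1 rose and 1 fell. Under ABT-263, 2 of 6 B cell, 2 of 5 monocyte and 2 of 4 club cell markers fell. Endothelial and alveolar type 2 lists had 0 calls there. Of 6 alveolar type 1 markers 2 rose and 1 fell there, and of 6 neutrophil markers 1 rose and 1 fell. No marker of these lists was at 0 in all libraries, and the part of these cell types in the changes of the 10 genes was not tested. Leaving haemoglobin and mitochondrial genes out before scaling kept the 3 calls under vehicle.

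Single genes of the machinery around the receptor passed the test, at a share near that of all genes. Among 14 genes for receptors, pre-receptor enzymes, chaperones and export pumps, 2 rose and 2 fell under vehicle (edgeR, adjusted p under 0.05), beside 18.9% of all genes that rose and 16.8% that fell, and their median log2 fold change was -0.13 beside -0.04 over all genes. Hsd11b1, the enzyme that regenerates active glucocorticoid inside cells, averaged 389 ± 86.7 CPM in hypoxia with vehicle and 244 ± 43.4 CPM in normoxia with vehicle (log2 fold change 0.67). Nr3c2, the mineralocorticoid receptor, averaged 8.86 ± 1.75 CPM in hypoxia with vehicle and 14.3 ± 1.81 CPM in normoxia with vehicle (-0.69). The chaperone Hsp90ab1 fell by 0.57 and Abcb1b, a pump that exports steroids, rose by 0.78 on the log2 scale. Under ABT-263, 3 rose and 1 fell, beside 21.6% and 19.4% of all genes, Hsd11b1 by 0.83, Abcb1b by 1.23 and Abcb1a by 0.60 upward and Nr3c2 by -0.51. The 2 pumps were uneven in hypoxia with ABT-263 (SD, n = 6). Abcb1b averaged 7.69 ± 5.4 CPM there and 3.3 ± 1 CPM in normoxia with ABT-263, and Abcb1a 21.6 ± 6.15 and 14.2 ± 1.98 CPM.

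Other glucocorticoid-induced genes were also called at shares near those of all genes. Of 34 tested, 8 rose and 5 fell under vehicle, beside 18.9% and 16.8% of all genes, with a median log2 fold change of 0.10 beside -0.04. Under ABT-263, 8 rose and 6 fell, beside 21.6% and 19.4% of all genes, with a median of 0.00 beside -0.02 (edgeR). Under vehicle the 4 with the smallest p were Bcl6, a germinal centre repressor (log2 fold change -0.83), Bhlhe40, a clock-linked repressor also induced by low oxygen (1.28), Sesn1, a stress-responsive inhibitor of mTORC1 (-0.46), and Fam107a, an actin-binding protein (1.34). Under ABT-263 they were the monoamine oxidase Maoa (0.50), the lysolipid transporter Mfsd2a (1.21), Sesn1 (-0.41) and the antioxidant enzyme Gpx3 (0.86). Per1, the clock gene with a classical receptor site, had a log2 fold change of -0.45 under ABT-263 (adjusted p = 0.338) and 0.54 under vehicle (adjusted p = 0.265).

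Inflammatory genes that glucocorticoids repress mostly rose where they passed the test (edgeR). Of 13 tested, 6 rose and 0 fell under vehicle, beside 18.9% of all genes that rose and 16.8% that fell. In either arm 4 of the 13 were negative, with a median log2 fold change of 0.11 under vehicle and 0.28 under ABT-263. Those that rose under vehicle included the monocyte chemokines Ccl2 (log2 fold change 3.27) and Ccl7 (2.87), the cytokine Il6 (3.38) and the neutrophil chemokine Cxcl1 (1.63). In normoxia with vehicle these were near the floor, at means of 0.794 (Ccl2), 1.02 (Ccl7), 0.41 (Il6) and 1.02 CPM (Cxcl1). A gene this low in normoxia can pass the filter through its hypoxia libraries alone. Under ABT-263, 6 rose and 1, the chemokine Ccl5 (-1.68), fell, beside 21.6% and 19.4% of all genes. Ccl2 stood at 2.83, Ccl7 at 2.38, Cxcl1 at 1.89 and Il6 at 2.77 there. Ccl5 averaged 9.64 ± 3.34 CPM in hypoxia with ABT-263 and 30.7 ± 44.4 CPM in normoxia with ABT-263 (SD, n = 6). Its spread in normoxia exceeded its mean, so its fall rests on an uneven group. The list was chosen with earlier results of these libraries known, so its direction is no independent evidence.

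Some zinc transport genes rose beside the metallothioneins. Of 11 zinc and MTF1 genes tested, 5 rose and 0 fell in either arm by edgeR, beside 21.6% of all genes that rose under ABT-263 and 18.9% under vehicle (median log2 fold change 0.15 under ABT-263 and 0.11 under vehicle, beside -0.02 and -0.04 over all genes). The plasma membrane zinc importer Slc39a1 averaged 98.4 ± 9.04 CPM in hypoxia with vehicle and 59.7 ± 4.75 CPM in normoxia with vehicle (log2 fold change 0.72), and 103 ± 15.2 CPM in hypoxia with ABT-263 and 53.5 ± 7.18 CPM in normoxia with ABT-263 (0.95). The importers Slc39a10 (0.54 under ABT-263, 0.56 under vehicle) and Slc39a14 (0.64 under ABT-263, 0.67 under vehicle) rose in both arms. Slc39a8, another importer, rose by 0.37 under ABT-263 and by 0.32 under vehicle. Slc30a5, which loads zinc into the secretory pathway, rose by 0.22 under vehicle and had a change of 0.15 under ABT-263 (adjusted p = 0.0853). The 5 genes that rose were therefore not the same in both arms. Hmox1, a haem oxygenase gene on this list and no zinc transporter, averaged 41.5 ± 7.81 CPM in hypoxia with ABT-263 and 30.6 ± 5.9 CPM in normoxia with ABT-263. Mtf1 itself was not called, at 0.01 under ABT-263 (adjusted p = 0.935) and -0.11 under vehicle (adjusted p = 0.344). Slc30a1, the zinc exporter that MTF1 induces, had 1 to 11 counts per library and was not tested, as were Slc30a10 and the tissue-restricted Mt3 and Mt4, at 0 to 1, 1 to 14 and 0 counts. These low counts, like the 0 counts of the early gene Jund in every library, are what the deposited table lists. The annotation used for counting is not given in the sources used here, so they are not read as the genes' level in lung.

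Dusp1 is also an immediate early gene, induced within minutes by handling or tissue dissociation. Among 12 other such genes, 1 rose and 4 fell under vehicle, beside 18.9% and 16.8% of all genes, with a median log2 fold change of -0.38 beside -0.04 over all genes, and 0 rose and 6 fell under ABT-263, beside 21.6% and 19.4%, with a median of -0.50 beside -0.02. Egr1, a growth-factor-induced zinc finger factor, averaged 21.6 ± 4.69 CPM in hypoxia with vehicle and 57.7 ± 33.8 CPM in normoxia with vehicle (log2 fold change -1.41). The orphan receptor Nr4a1 averaged 33.6 ± 10.4 CPM in hypoxia with vehicle and 88.1 ± 55.1 CPM in normoxia with vehicle (-1.39), and Btg2 (-0.46) and Zfp36 (-0.45), an antiproliferative factor and a destabiliser of cytokine mRNA, fell as well. Under ABT-263 the 4 with the smallest p, Btg2 (-0.60), Zfp36 (-0.63), Nr4a1 (-1.62) and Fosb (-0.98), all fell. The part of this shift among immediate early genes in the level of Dusp1 was not tested.

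Relatives of Dusp1 and Errfi1 in function, MAPK phosphatases and feedback inhibitors of EGF receptor signalling, held calls in both directions. Of 12 tested, 4 rose and 3 fell under vehicle, beside 18.9% and 16.8% of all genes, and 4 rose and 2 fell under ABT-263, beside 21.6% and 19.4%. The list medians were 0.09 under ABT-263 and -0.09 under vehicle. The ERK phosphatase Dusp6 (0.61 under ABT-263, 1.26 under vehicle) and the ERK pathway inhibitor Spry4 (0.84 under ABT-263, 1.02 under vehicle) rose, Dusp8, which acts on JNK and p38, rose by 0.50 under ABT-263 and by 0.82 under vehicle, and Lrig1, an EGF receptor inhibitor, fell by 0.43 under ABT-263 and by 0.34 under vehicle on the log2 scale. Spred1, another ERK pathway inhibitor, rose by 0.37 under ABT-263 and by 0.23 under vehicle.

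**Figure D3:**
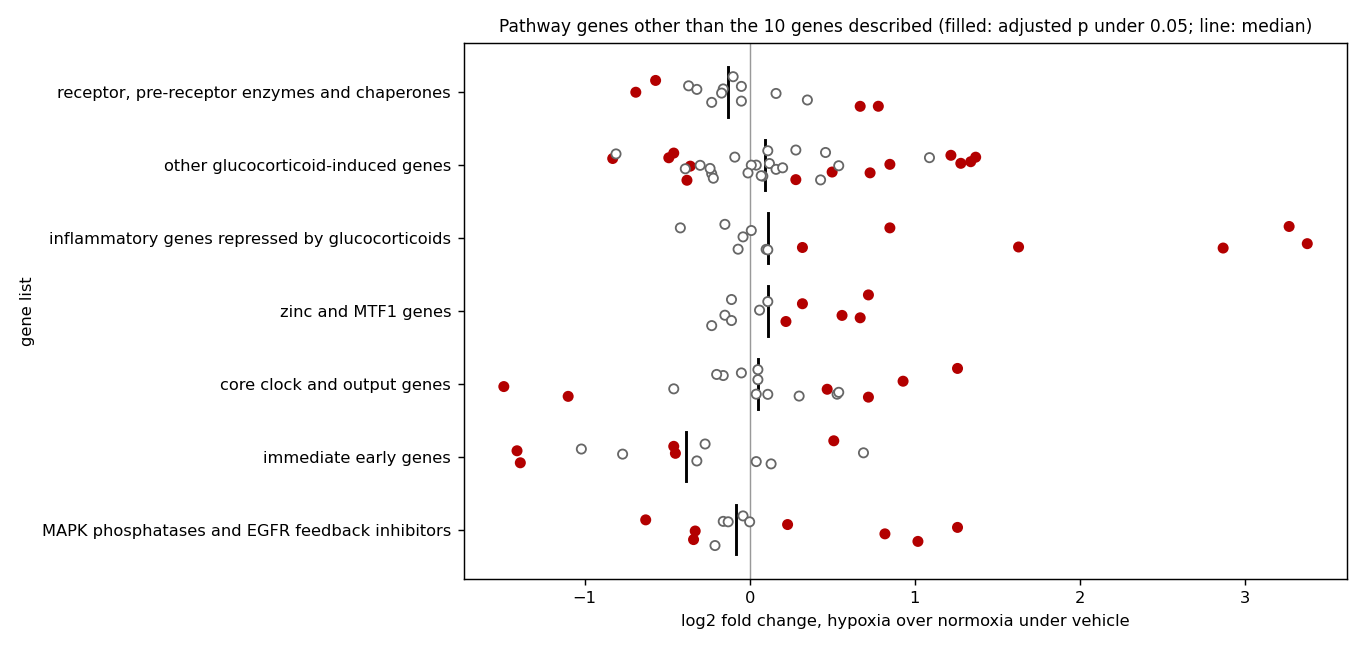
Log2 fold change of hypoxia over normoxia under vehicle (x axis) for each tested gene of 7 pathway lists (y axis), which do not include the 10 genes described here. Filled points have an edgeR adjusted p under 0.05 and black lines are list medians, which lie between -0.38 (immediate early genes) and 0.11 (zinc and MTF1 genes, and inflammatory genes).

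The second question was what ABT-263 did to these genes. In normoxia 0 of the 10 passed in edgeR, DESeq2 or limma-voom, beside 0.0413% of all genes called by edgeR, and 2 of 10 had an unadjusted p under 0.05, beside 6.81% of all genes. Those were Tsc22d3 and Errfi1. Tsc22d3 had 206, 275 and 588 CPM in normoxia with ABT-263, against 103, 189 and 295 CPM in normoxia with vehicle. Among the ABT-263 libraries, replicates 4 and 5 at 588 and 417 CPM, lay above the vehicle range, and the log2 fold change of 0.86 (SE 0.27) had an edgeR adjusted p of 0.402. Errfi1 averaged 166 ± 41.8 CPM in normoxia with ABT-263 and 120 ± 35.7 CPM in normoxia with vehicle (SD, n = 6), a log2 fold change of 0.47 (edgeR adjusted p = 0.572). The other 8 genes had log2 fold changes between -0.18 (Nr3c1) and 0.57 (Fkbp5, 95% interval -0.03 to 1.17).

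In hypoxia 0 of the 10 genes passed in any of the 3 tools and 0 had an unadjusted p under 0.05, where edgeR called 0 genes in all and 3.21% had an unadjusted p under 0.05. The 95% intervals bound what could have been missed: for Mt2 they ran from -0.22 to 0.76 in hypoxia and from -0.49 to 0.55 in normoxia, and for Zbtb16 from -0.73 to 1.74 in hypoxia and from -0.76 to 1.85 in normoxia on the log2 scale. Averaged over oxygen, 0 of the 10 passed in the same tools, beside 0.165% of all genes, and Fkbp5, Tsc22d3 and Errfi1 had an unadjusted p under 0.05, beside 5.78% of all genes. The interaction, which tests whether the response to hypoxia differed between ABT-263 and vehicle, called 0 of the 10 in edgeR, DESeq2 or limma-voom, and 0 had an unadjusted p under 0.05, beside 3.69% of all genes. Tsc22d3, whose oxygen difference was -0.38 under ABT-263 and 0.33 under vehicle, had an interaction of -0.712 (adjusted p = 0.991). The interaction uses all 24 libraries, so it includes every library of the drug comparison in normoxia.

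Clock genes were the exception among the pathway lists. In normoxia, 3 of 17 clock and clock-output genes rose and 1 fell with ABT-263 (edgeR, adjusted p under 0.05). This stands beside 0.0413% of all genes called, 7 of 16935, while all other pathway lists had 0 calls. Dbp, a clock-output factor, averaged 58.6 ± 23.6 CPM in normoxia with ABT-263 and 20.6 ± 6.62 CPM in normoxia with vehicle (SD, n = 6), a log2 fold change of 1.5. Nr1d1, which encodes the repressor REV-ERBα, rose by 0.70 and the output factor Tef by 0.77, and Arntl, the BMAL1 gene, fell by 0.77 on the log2 scale. Per1, which belongs to this list and to the glucocorticoid-induced genes, had a log2 fold change of 1.17 (SE 0.37, adjusted p = 0.413). In hypoxia 0 of the 17 passed, where edgeR called 0 genes in all, with Arntl at -0.63 (adjusted p = 0.291) and Per1 at 0.17. Averaged over oxygen, 4 of the 17 rose and 1 fell with ABT-263, beside 0.165% of all genes. The interaction called 0 of the 17 and 0 genes in all, so no difference of the drug effect between oxygen levels was called.

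In the oxygen comparisons, clock genes were called at shares near those of all genes. Under vehicle 4 of 17 rose and 2 fell, beside 18.9% and 16.8% of all genes (median log2 fold change 0.05 beside -0.04), including Arntl (-1.10), the REV-ERBβ gene Nr1d2 (0.93), the CLOCK relative Npas2 (-1.49) and Dbp (1.26), and under ABT-263 2 rose and 4 fell, beside 21.6% and 19.4% (median -0.06 beside -0.02), including Arntl (-0.96), Nr1d2 (0.55), the clock repressor Ciart (-0.91) and Npas2 (-0.83). Corticosterone and several of its target genes follow the daily cycle. The part of these clock gene differences in the levels of the 10 genes was not tested. The hour of sampling is not stated, so a difference in it between groups cannot be told apart from oxygen or drug. Where no gene of a list passed for the drug, the gene with the smallest p is given. In hypoxia these were Dusp6 (-0.64, adjusted p = 0.49), Cd163, a haemoglobin scavenger receptor (0.72, 0.659), the early gene Ier3 (-0.67, 0.712), and, at an adjusted p of 1, the pump gene Abcb1a (0.26), the nitric oxide synthase gene Nos2 (-0.36) and the zinc transporter gene Slc30a2 (-0.19). In normoxia they were Spry1, a relative of Spry4 (-0.37, adjusted p = 0.144), Klf15, a Krüppel-like factor (0.77, 0.231), Abcb1a (-0.39, 0.626), Nos2 (-0.39, 0.626), Ier3 (-0.39, 0.76) and the haem oxygenase gene Hmox1 (-0.27, 0.783).

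Within groups, the genes varied together in sets. Deviations of log2 CPM from the group mean over the 24 libraries gave a positive correlation for 36 of 45 pairs, a median Pearson r of 0.29, and 9 pairs above 0.5. The tightest pair was Tsc22d3 with Errfi1 (Pearson r = 0.85, Spearman rho = 0.83), followed by Mt1 with Mt2 (0.83 and 0.79). Dusp1 went with Tsc22d3 (0.68 and 0.69) and with Errfi1 (0.66 and 0.70). Fkbp5 went with Zbtb16 (0.68 and 0.65) and with Klf9 (0.67 and 0.61), and less with Tsc22d3 (0.40 and 0.40). Without the 2 libraries farthest from the median of the first gene, Pearson r was 0.83 for Tsc22d3 with Errfi1, 0.80 for Mt1 with Mt2, 0.54 for Fkbp5 with Zbtb16 and 0.53 for Fkbp5 with Klf9. Nr3c1 and Sgk1 stood mostly apart, at 0.07 and 0.15 with Fkbp5. Their highest pairs were Klf9 with Nr3c1 (0.50 and 0.34) and Zbtb16 with Sgk1 (0.45 and 0.40). These values are a description: each library supplies both genes of a pair, so its depth and cell makeup are shared. The same counts were not taken over all gene pairs, so they are not read as particular to these genes.

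Single libraries carried several extremes at once, a count that was not taken over all genes. In normoxia with ABT-263, replicate 4 was the highest of its group in 7 of the 10 genes (Tsc22d3, Zbtb16, Klf9, Errfi1, Mt1, Mt2 and Nr3c1). In hypoxia with ABT-263, replicate 1 was highest in 6 and replicate 2 in the other 4, while replicate 4 was lowest in 5. In hypoxia with vehicle, replicate 4 was highest in 5 (Fkbp5, Tsc22d3, Dusp1, Errfi1 and Mt1), and in normoxia with vehicle, replicate 5 was highest in 4, both metallothioneins among them. Zbtb16 had the widest range of the 10 genes in 3 of the 4 groups: its highest library exceeded its lowest 16.7-fold in hypoxia with ABT-263 and 15.5-fold in hypoxia with vehicle, against 3.81-fold in normoxia with ABT-263 and 3.29-fold in normoxia with vehicle, where Dusp1 had 3.59-fold. Nr3c1 was among the steadiest, with 1.54-fold in hypoxia with ABT-263, 1.23-fold in hypoxia with vehicle, 1.19-fold in normoxia with ABT-263 and 1.51-fold in normoxia with vehicle.

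**Figure D4:**
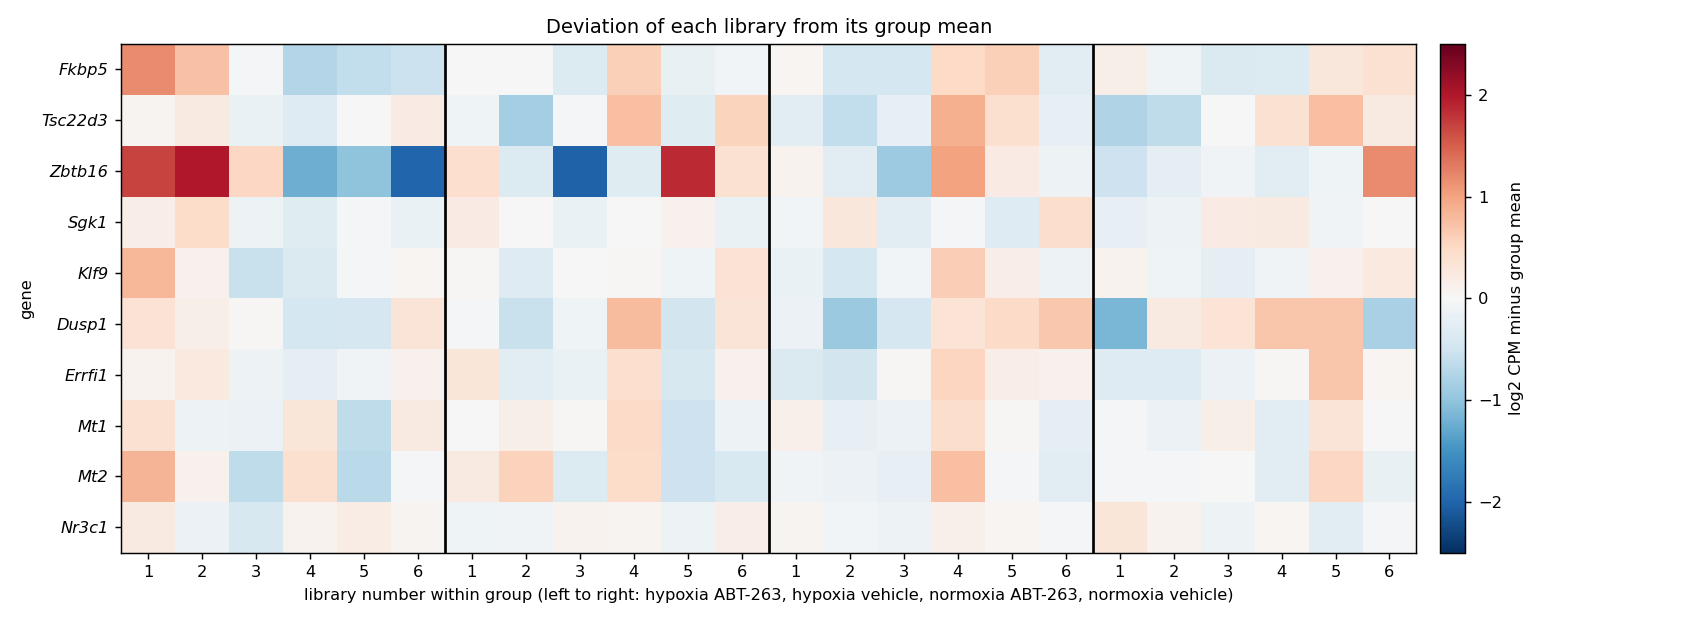
Deviation of log2 CPM from the group mean (colour, red above and blue below) for the 10 genes (rows) in the 24 libraries (columns, numbered within the groups hypoxia ABT-263, hypoxia vehicle, normoxia ABT-263 and normoxia vehicle). Zbtb16 spans the widest range, from -2.02 to 2.01, and the column of normoxia ABT-263 replicate 4 is above its group mean in all rows except that of Sgk1.

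By within-group correlation over the 24 libraries, among 15468 other genes with a mean of 1 CPM or more, the 5 genes most like Fkbp5 were Myof (Pearson r = 0.83), Klf13 (0.83), Rin3 (0.81), Lmo7 (0.79) and Tox2 (0.79). Those most like Mt2 were Fitm2 (0.83), Lrrc49 (0.77), Cog7 (0.76), Lamc3 (0.73) and Colq (0.72). Without the 2 libraries farthest from the median, these r values lay between 0.60 and 0.75. The correlation says only that the levels varied together across these libraries.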

How the data were processed

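Whole-lung RNA was sequenced from 24 libraries in 4 groups of 6, with total RNA from a column kit, a stranded mRNA library kit and a NextSeq instrument, per the labels' protocols. The authors deposited expected counts per gene, estimated by RSEM after Trimmomatic and STAR on GRCm38, per the submitters' processing notes. No source used here gives their versions, the annotation release or the strand setting. All sample columns were matched by title, 0 were left over, and 91.8% of the deposited expected counts were whole numbers. RSEM divides reads shared between genes, and of the 10 genes described Klf9 and Mt2 carried such fractions.

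Expected counts were rounded for edgeR (version 4.0.16, R 4.3.3). filterByExpr with its minimum count of 10 left 16935 of 54532 genes, TMM scaled the libraries, and a robust quasi-likelihood F test with 1 mean per group on all 24 libraries (20 residual degrees of freedom) gave 7 comparisons, adjusted over all genes by Benjamini-Hochberg at 0.05. The code was run on counts simulated from the same model, with far fewer changed genes than were called here. That run checks the code and does not test how well the model suits these data. Log2 CPM used a prior count of 2. No set test was run, and correlations carry no p. DESeq2 1.42.0 and limma-voom (limma 3.58.1) were alternatives. Gene IDs were matched to GENCODE vM21 on GRCm38 (54409 of 54532). Named genes were the 10 genes, up to 4 passing genes with the smallest p of each pathway list and comparison (where none passed, the 1 with the smallest p), Per1, Nr3c2, Hsd11b1, Mtf1 and Slc30a1, the 2 leading markers of a cell type, and the 5 genes most like Fkbp5 and Mt2. Other genes named were chosen after their values were seen (Slc30a10, Mt3, Mt4, Jund, Ccl5). The 10 genes and the lists were chosen with earlier results of these data known.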

Additional observations from a re-analysis of the deposited data

Results flagged for a closer look

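In groups of 6, a library was singled out where its gap to the nearest other library took a larger share of the group's whole range than Dixon's 95% critical value. This happened in 7 of 40 combinations of gene and group. The critical value is set for about 1 in 20, a rate that holds for independent, normally distributed values. These were unlogged CPM of genes that share libraries, and every value singled out was the highest of its group. The count is therefore not read against that rate. Fkbp5 was 27.6 CPM in hypoxia vehicle replicate 4, with the other 5 libraries at 14.4 to 18.4 CPM. Zbtb16 was 38.1 CPM in hypoxia vehicle replicate 5, with the others at 2.46 to 13.9 CPM, and 14.2 CPM in normoxia vehicle replicate 6, with the others at 4.31 to 5.81 CPM. Klf9 was 62.4 CPM in hypoxia ABT-263 replicate 1, with the others at 23.9 to 37.6 CPM. Errfi1 was 189 CPM in normoxia vehicle replicate 5, with the others at 93.3 to 121 CPM. Mt2 was 19.5 CPM in normoxia ABT-263 replicate 4, with the others at 9.60 to 11.1 CPM, and 16.5 CPM in normoxia vehicle replicate 5, with the others at 9.5 to 11.4 CPM.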

How the results depend on the processing

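Counting error was largest for Zbtb16 (16.4%) and Fkbp5 (10.1%), at their lowest counts. Their spread between libraries was wider, with a lowest within-group coefficient of variation of 46.8% for Zbtb16 and 22.2% for Fkbp5. Calls near the threshold moved with small changes of setting or with single libraries left out. Of 2350 refits of 70 log2 fold changes, 2185 kept direction and call, 73 lost the call, 4 gained it and 88 changed sign, all of the last among values not called. Levels by total-count CPM differed from the TMM-scaled ones by less than 1 SD in all 40 cases, and 8 of 45 correlations moved without the 2 farthest libraries. No paired analysis was possible because the labels give the libraries no replicate numbers shared between groups.

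The number of genes risen under ABT-263, 4 in the fit reported, was 2 with no filter on low counts, with only the groups compared, and in both reductions chosen after seeing the data: without the least correlated library of each group, and without hypoxia ABT-263 replicates 1 and 2. It ran from 2 to 4 when single libraries were left out. The number fallen there, 1, was 0 with no filter, with limma-voom, with the first residual component as covariate and in both reductions, and 0 to 1 with single libraries left out. Under vehicle it was 0 to 1, since Dusp1 passed (-0.813, adjusted p = 0.0418) without normoxia vehicle replicate 1. The cause was not tested.

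Sign changes, none of them called, were as follows on the log2 scale. For Klf9 under vehicle, hypoxia against normoxia was 0.007 with no filter and 0.004 without the 4 least correlated libraries. With limma-voom, Tsc22d3 averaged over drug was 0.003 and the drug effect on Dusp1 averaged over oxygen 0.015. Without the 4 least correlated libraries the drug effect was -0.012 for Dusp1 in normoxia and, in hypoxia, -0.108 for Fkbp5, -0.088 for Klf9, -0.039 for Mt2 and -0.023 for Nr3c1, and the interaction was 0.345 for Zbtb16, -0.031 for Mt1 and -0.096 for Mt2. Without hypoxia ABT-263 replicates 1 and 2, hypoxia under ABT-263 was -0.322 for Zbtb16 and -0.051 for Sgk1, the drug effect in hypoxia -0.400 for Fkbp5, -0.856 for Zbtb16, -0.131 for Klf9 and -0.006 for Mt2, the interaction of Mt2 -0.037 and the averaged drug effect on Zbtb16 -0.157.

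With single libraries left out, the ranges that crossed 0 were, for hypoxia under vehicle, -0.094 to 0.049 (Klf9), -0.061 to 0.205 (Errfi1) and -0.048 to 0.073 (Nr3c1), under ABT-263 -0.296 to 0.070 (Klf9), and averaged over drug -0.116 to 0.088 (Tsc22d3) and -0.153 to 0.030 (Klf9). For the drug they were -0.118 to 0.186 (Dusp1) and -0.160 to 0.153 (Mt2) in normoxia, -0.066 to 0.403 (Fkbp5), -0.063 to 0.250 (Klf9) and -0.209 to 0.091 (Dusp1) in hypoxia, and -0.115 to 0.068 (Dusp1) averaged over oxygen. For the interaction they were -0.531 to 0.580 (Zbtb16), -0.136 to 0.067 (Sgk1), -0.285 to 0.081 (Klf9) and -0.297 to 0.046 (Dusp1).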
